A study of Mus musculus with 81 samples.

Results

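The genes described here are 10 of the 22869 genes in the deposited table: 6 of the Polycomb system (Ezh2, Ezh1, Suz12, Eed, Bmi1 and Rnf2) and 4 of the DNA methylation system (Dnmt1, Dnmt3a, Dnmt3b and Tet1). They were chosen by name. Together they fill 20 of the 29510 transcript rows, and each gene is represented by its row of highest mean over the cells, since rows of the same gene can share reads. The values come from 81 single cells of embryonic mouse pancreas (strain CD1, wild type, day 13.5), dissociated with trypsin and turned into cDNA cell by cell on a microfluidic device. All cells belong to 1 group, and the labels name no animal, so the 81 cells are 1 sample: every correlation and share below is a description of these cells and carries no p-value.

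Values are in RPKM, reads per kilobase of transcript, scaled to the read total of the cell. A gene is called detected at 1 RPKM. The reads behind each cell, estimated from the step that 1 read makes in the values, had a median of 3534000 over all cells and a range of 1659000 to 5406000 in 77 of them. The remaining 4 were shallow: C43 had about 415800 reads, C94 about 196000, C61 about 72700 and C3 about 19700. The collagen genes Col1a2 and Col3a1, which mark mesenchyme, each reached 10 RPKM in 77 of the 81 cells. Epcam, an epithelial surface gene, did so in 9 cells, and the pancreatic regulator genes Pdx1 and Ptf1a in 1 and 0. The 8 mesenchyme markers ranged from 4 cells (Lum) to 77 at that level and the 9 epithelial markers from 1 cell to 15 (Sox9). Col1a2 also reached 10 RPKM in 8 of the 9 Epcam cells and in 4 of the 5 cells with the macrophage gene Tyrobp, so it does not set mesenchymal cells apart here. The shallow cell C3 counts among these 5 on few Tyrobp reads.

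Polycomb proteins keep developmental genes silent by marking histones. Polycomb repressive complex 2 (PRC2) methylates histone H3 at lysine 27 through Ezh2 or Ezh1, with Suz12 and Eed as obligate partners, and Polycomb repressive complex 1 (PRC1) attaches ubiquitin to histone H2A through Rnf2, with a partner such as Bmi1. DNA methylation is written by Dnmt3a and Dnmt3b, copied onto the new strand after replication by Dnmt1, and taken off by a path that Tet1 starts. Both systems have to be rebuilt each time a cell divides, and in mouse islets Ezh2 and Bmi1 are known for repressing Cdkn2a, a brake on division. The genes were therefore set against the cell cycle, through the number of 25 mitotic genes (among them Top2a, Mki67, Ccnb1 and Plk1) that reached 10 RPKM in a cell, and through the same number for 25 genes of DNA replication, here called S-phase genes (among them Pcna, Mcm2 to Mcm7 and Rrm2).

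The start regions of the 3 genes on which the results below turn are shown first: Rnf2, the gene with the closest relation to the mitotic count, Dnmt1, the gene with the closest relation to the S-phase count, and Ezh2, the most abundant of the 10. Sequences are from RefSeq on GRCm38.p6, a later build than the mm9 of the deposited table, and each is the 250 bases before the annotated start site, on the strand of the gene. Capitals mark CCAAT, or ATTGG where it lies on the other strand. CCAAT and ATTGG overlap in the run CCAATTGG of the Dnmt1 sequence. CCAAT is the letter string of the NF-Y box, known from many cell cycle promoters.
Rnf2 (chr1:151500992-151501241, minus strand): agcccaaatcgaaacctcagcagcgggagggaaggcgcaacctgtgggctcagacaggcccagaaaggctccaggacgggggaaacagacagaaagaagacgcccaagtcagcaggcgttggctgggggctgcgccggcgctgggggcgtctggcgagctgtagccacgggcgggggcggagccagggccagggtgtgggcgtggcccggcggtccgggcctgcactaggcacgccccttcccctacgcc
Ezh2 (chr6:47595031-47595280, minus strand): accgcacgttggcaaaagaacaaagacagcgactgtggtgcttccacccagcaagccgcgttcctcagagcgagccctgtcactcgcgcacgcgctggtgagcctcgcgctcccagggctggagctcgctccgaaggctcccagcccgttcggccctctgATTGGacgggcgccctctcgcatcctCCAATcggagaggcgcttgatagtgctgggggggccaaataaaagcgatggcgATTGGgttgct
Dnmt1 (chr9:20952624-20952873, minus strand, the start site of 3 listed whose window holds the string TTTGGCGC): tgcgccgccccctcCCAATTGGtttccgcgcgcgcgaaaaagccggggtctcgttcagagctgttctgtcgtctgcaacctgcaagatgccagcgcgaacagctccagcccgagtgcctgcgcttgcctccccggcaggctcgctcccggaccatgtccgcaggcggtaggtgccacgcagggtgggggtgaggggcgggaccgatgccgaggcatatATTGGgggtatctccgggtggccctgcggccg
In Ezh2 the CCAAT string begins 90, 64 and 11 bases before the start site. Of all 32851 windows of 300 bases in the RefSeq table (250 before to 50 after a start site), 37.4% hold it on either strand.

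The string TTTGGCGC is a form of the site of E2F factors, which switch on S-phase genes. The string lies just after the start site of Ezh2 and the Dnmt1 start site shown above. That Dnmt1 start site was picked because its window holds the string, and the other Dnmt1 windows listed do not. The transcript row used for Dnmt1 was not matched to any of these start sites, so the sequence shown may not be the start of that row. The string begins at base 4 of Ezh2 and at base 34 of Dnmt1, counted from 1 at the start site. Of the 32851 windows, 0.514% hold this string on either strand, and 0 of the windows of the other 8 members do. That share is per window and takes no account of the choice among Dnmt1 windows. The related string TTTCCCGC begins 219 bases before the start site of Suz12, and 1.07% of all windows hold it. Both strings contain the letters CG, and both shares are over all windows, which hold a median of 7 CG. The windows with a match hold 31 (Ezh2), 33 (Dnmt1) and 41 (Suz12). The share among windows as rich in CG was not computed. These searches were chosen with the values known, neither E2F string overlaps a CCAAT string here, and a match is a run of letters, not a measured binding site. The stretches around them are given with the E2F string in capitals.
Ezh2 (chr6:47595009-47595038, minus strand): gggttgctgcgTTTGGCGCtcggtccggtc
Dnmt1 (chr9:20952574-20952601, minus strand): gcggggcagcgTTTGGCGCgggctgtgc
Suz12 (chr11:79992876-79992905, plus strand): cgacccctcatTTTCCCGCgaattcagttc

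Among the enzymes of PRC2, Ezh2 was present in nearly every cell and Ezh1 in few. Ezh2 (chromosome 6, 47480273 to 47545029, minus strand, mm9) was detected in 74 of 81 cells (91.4%, exact Clopper-Pearson 95% interval 83.002% to 96.5%, which like all intervals here covers counting error only). Its values ran from 0 to 515.4 RPKM with a median of 46.95 and quartiles of 15.3 and 128.9, the highest level of the 10 genes. Ezh1 (chromosome 11, 101052429 to 101087764, minus strand), the enzyme known from non-dividing tissues, was detected in 14 cells (17.3%, 9.78% to 27.3%), with a median of 0 and a highest value of 33.3 RPKM in C14. Every cell with Ezh1 also had Ezh2, and Ezh2 was the higher of the pair in 79 cells. In the remaining cells, C50 and C54, both were listed at 0. A 0 is read here as a listed value and not as absence.

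Suz12 and Eed, the PRC2 partners, were detected in fewer cells than Ezh2, and the 3 genes were not always detected together. Suz12 (chromosome 11, 79806608 to 79847625, plus strand) was detected in 64 cells (79.01%, 68.5% to 87.3%), with a median of 9.96 and a highest value of 145.9 RPKM. Eed (chromosome 7, 97103164 to 97129486, minus strand) was detected in 55 cells (67.9%, 56.6% to 77.8%), with a median of 4.49 and a highest value of 133.8 RPKM. Suz12, Eed and Ezh2 were all detected in 41 of 81 cells (50.6%, 39.3% to 61.9%). Suz12 was without Eed in 20 cells and Eed without Suz12 in 11. In a cell of median depth 1 RPKM is an estimated 9.81 reads of Ezh2, 15.2 of Suz12 and 7.31 of Eed, so a value below 1 RPKM there can still rest on several reads.

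Of the PRC1 genes, Rnf2, the ubiquitin ligase also called Ring1B, was detected in 36 cells and Bmi1, its partner in the canonical complex, in 18. Rnf2 (chromosome 1, 153316536 to 153347953, minus strand; 44.4%, 33.4% to 55.9%) had a median of 0.340 RPKM over all cells and 16.5 RPKM where it was detected. Its 3 highest values were 220.4 RPKM in C33, 154.9 in C65 and 96.3 in C84. Bmi1 (chromosome 2, 18598645 to 18608256, plus strand; 22.2%, 13.7% to 32.8%) had a median of 0 over all cells and 15.3 RPKM where it was detected, with its highest values, 94.1 and 92.2 RPKM, in C50 and C38. In the shallow cells C3 and C61 the Bmi1 values of 13.9 and 3.80 RPKM are each about 1 read, and without the 4 shallow cells Bmi1 was detected in 16 of 77. Of the 50-base windows of the longest Bmi1 transcript, 18.5% also occur in transcripts of Gm5946 and AC114652.1, which makes its level uncertain. Commd3, which ends 801 bases before Bmi1 on the same strand, was detected in 47 cells and had a rank correlation of -0.0475 with Bmi1.

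**Figure D1:**
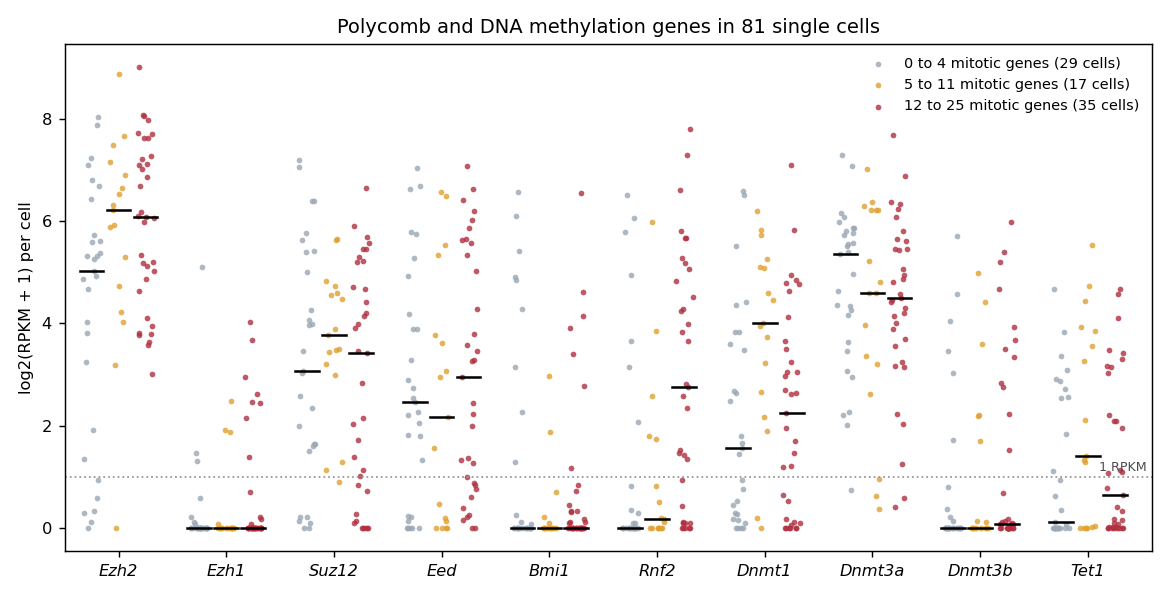
Level of each of the 10 genes in each of 81 cells, as log2(RPKM + 1); each point is a cell, coloured by how many of 25 mitotic genes reached 10 RPKM in it (0 to 4, 5 to 11 or 12 to 25, from left to right), and black bars are medians of 29, 17 and 35 cells. Ezh2 and Dnmt3a are high in all 3 sets of cells, Ezh1 and Bmi1 have medians of 0 in each, and the Rnf2 median is above 1 RPKM only in the cells with 12 to 25 mitotic genes.

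Among the DNA methyltransferases, Dnmt3a was the most widespread. Dnmt3a (chromosome 12, 3891744 to 3914443, plus strand, for the row used) was above 0 in all 81 cells and detected in 75 (92.6%, 84.6% to 97.2%), with a median of 23.7 RPKM, quartiles of 9.94 and 54.7, and a highest value of 203.8 RPKM in C31. The row used is that of the shorter transcript with an internal start. The row of the longer transcript had a mean of 34.9 RPKM against 37.7 RPKM, and since the rows can share reads, the row does not tell which form a cell made. With both rows summed, Dnmt3a was detected in all 81 cells. Dnmt3b (chromosome 2, 153475190 to 153513466, plus strand), the other enzyme that sets new methylation, was detected in 24 cells (29.6%, 19.99% to 40.8%), with a median of 0 and a highest value of 62.4 RPKM in C38. Dnmt3b was the higher of the pair in 9 cells. Of its 50-base windows, 11.5% also occur in Dnmt3c.

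Dnmt1 (chromosome 9, 20711650 to 20764332, minus strand, for the row used), the maintenance enzyme, was detected in 54 cells (66.7%, 55.3% to 76.8%), with a median of 5.10 RPKM, quartiles of 0.217 and 16.6, and a highest value of 136.1 RPKM in C37. The listed values thus spanned a wide range, and a low one is not read as absence. With all its transcript rows summed, Dnmt1 was detected in 60 cells. All 3 methyltransferases were detected together in 18 cells and none of them in 1, C70. Tet1 (chromosome 10, 62267318 to 62342762, minus strand), which oxidises methylated cytosine, was detected in 38 cells (46.9%, 35.7% to 58.3%), with a median of 0.562 and a highest value of 45.3 RPKM in C54. Tet1 has the longest transcript of the 10 genes, and 1 RPKM is an estimated 49.4 reads in a cell of median depth.

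The number of cells in which a gene was found depended on the level asked for, most of all for the sparse genes. Counting every value above 0, Ezh1 was found in 23 cells, Bmi1 in 34 and Dnmt3b in 39. At 5 RPKM Ezh1 was found in 5 cells and Tet1 in 23. At 10 RPKM Ezh1 was found in 3 cells, Bmi1 in 10, Tet1 in 12, Dnmt3b in 13 and Rnf2 in 23. At that level Dnmt1 was found in 30 cells, Eed in 31 and Suz12 in 40, while Ezh2 (69) and Dnmt3a (60) stayed widespread.

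Most of the 10 genes had little relation to how many mitotic genes a cell carried, and Rnf2 stood highest. The mitotic count ran from 0 to 24 with a median of 10. It moved with the number of genes at 1 RPKM in the cell (Spearman's rho 0.49 over 81 cells) and with the estimated reads (0.30). Partial correlations given the number of genes therefore stand beside the values below, and for Rnf2 also those given the reads. A rho of at least 0.3 was reached by 1 of the 10 genes, against 3.02% of 13212 genes above 0 in at least 3 cells and 4.21% of the 8556 genes above 0 in at least 20 cells. A rho of -0.3 or below was reached by 0 of 10, against 0.136%. A count of 1 in 10 cannot be told from those shares. The median rho was 0.11 over the 10 genes and 0.06 over all genes tested. All 10 genes passed the filter of 3 cells above 0. Given the number of genes at 1 RPKM, 1 of 10 was at 0.3 or more, against 1.32% of all genes, and 0 of 10 at -0.3 or below, against 0.469%.

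Rnf2 was detected in 7 of 29 cells with 0 to 4 mitotic genes (24.1%, 10.3% to 43.5%), in 5 of 17 with 5 to 11 (29.4%, 10.3% to 55.96%) and in 24 of 35 with 12 to 25 (68.6%, 50.7% to 83.1%). Its lowest, median and highest values were 0, 0 and 90.5 RPKM in the first set, 0, 0.129 and 61.8 in the second and 0, 5.78 and 220.4 in the third. The sets overlap over most of their range, and cells with 12 or more mitotic genes include some with Rnf2 at 0. The rank correlation was 0.38 over the 81 cells, higher than that of 98.7% of the 13237 genes tested, with the 25 mitotic genes included. It was 0.33 given the number of genes at 1 RPKM and 0.41 given the estimated reads. It was 0.39 without the 4 shallow cells, all of which had Rnf2, and 0.41 and 0.32 in the 40 cells numbered 1 to 48 and the 41 cells numbered 49 to 96. Against the S-phase count Rnf2 had a rho of -0.0114.

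Ezh2 followed the mitotic count less closely, and cells with Ezh2 below 1 RPKM were mostly ones with few mitotic genes. Its rho was 0.27, just under 0.3, and 0.20 given the number of genes at 1 RPKM. Ezh2 was detected in 23 of 29 cells with 0 to 4 mitotic genes, in 16 of 17 with 5 to 11 and in 35 of 35 with 12 to 25. Its median was 31.5 RPKM in the first set, 73.1 in the second and 66.7 in the third, with ranges of 0 to 261.3, 0 to 469.1 and 7.05 to 515.4 RPKM. Of the 7 cells with Ezh2 below 1 RPKM (C2, C50, C54, C69, C70, C81 and C92), 6 had 0 to 4 mitotic genes and 1, C54, had 7. Each of these 7 cells had an estimated 2594000 reads or more. Their genes at 1 RPKM ran from 2353 (C81, the lowest of all cells) to 3978 (C70), under the median of 4057 over the 81 cells. C2 and C54 were also Tyrobp cells. The part of either in the low Ezh2 values was not tested. Leaving out each cell in turn gave a rho of 0.251 to 0.302. It reached 0.3 in 3 of these 81 cases, without C18 (0.302), C71 (0.301) or C82 (0.3003). The side of 0.3 on which Ezh2 falls thus rests on single cells. Within the 40 cells numbered 1 to 48 the rho was 0.14, and within the 41 numbered 49 to 96 it was 0.25.

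The other 8 genes lay between -0.12 and 0.19. Dnmt3b was at 0.19 and Ezh1 at 0.18. Given the number of genes at 1 RPKM, Dnmt3b was at 0.08 and Ezh1 at 0.01. Ezh1 had a rho of 0.35 with the number of genes at 1 RPKM and of 0.34 with the estimated reads, above its relation to the mitotic genes. Tet1 (0.12), Bmi1 (0.10), Eed (0.07), Dnmt1 (0.00), Suz12 (-0.05) and Dnmt3a (-0.12) were weaker still. Their partial values given the number of genes were 0.04, 0.05, -0.06, -0.13, -0.16 and -0.09 in that order. In sparse single-cell values correlations of this size are no finding. Dnmt3a had medians of 39.8, 23.3 and 21.5 RPKM in cells with 0 to 4, 5 to 11 and 12 to 25 mitotic genes, with ranges of 0.680 to 156.6, 0.2996 to 128.1 and 0.325 to 203.8 RPKM, which overlap almost wholly.

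**Figure D2:**
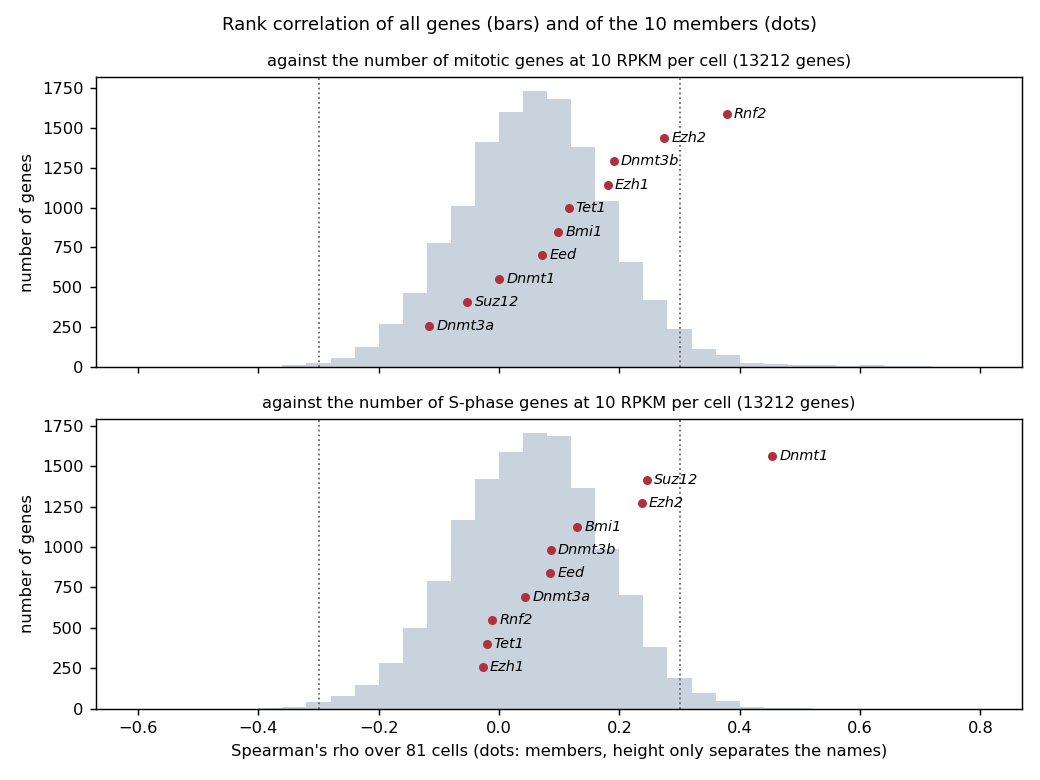
Spearman's rho over 81 cells of 13212 genes (bars) and of the 10 members (dots) with the number of mitotic genes (upper) and of S-phase genes (lower) at 10 RPKM per cell; dotted lines stand at -0.3 and 0.3. Rnf2 (0.38) lies past the upper line in the first panel and Dnmt1 (0.45) in the second, while the other members lie between the lines in both panels.

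Dnmt1 was higher in cells with more DNA replication genes, while its relation to the mitotic count was near 0. The S-phase count ran from 0 to 17 with a median of 10. Its rho with the mitotic count was 0.06, so the counts were nearly unrelated, and a cell could be high in both. Dnmt1 had a rho of 0.45 with the S-phase count, 1 of 10 members at 0.3 or more against 1.88% of 13212 genes, and 0 of 10 at -0.3 or below against 0.212%. Its rho with the mitotic count was 0.00018. Dnmt1 was detected in 39 of the 45 cells with 10 or more S-phase genes (86.7%, 73.2% to 94.9%) and in 15 of the 36 cells with fewer (41.7%, 25.5% to 59.2%). The lowest, median and highest values were 0, 10.3 and 136.1 RPKM in cells with 10 or more and 0, 0.4097 and 90.4 RPKM in cells with fewer. The upper quartile of the cells with fewer S-phase genes, 5.89 RPKM, lies below the median of the cells with 10 or more, while the ranges overlap.

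The S-phase count also moved with the number of genes at 1 RPKM (rho 0.42) and less with the reads (0.14). Given the number of genes at 1 RPKM, the rho of Dnmt1 was 0.41, and given the mitotic count 0.46. On the first of these measures 1 of 10 members was at 0.3 or more, against 0.674% of all genes, and 0 of 10 at -0.3 or below, against 0.53%. Within the 40 cells numbered 1 to 48 it was 0.25, and within the 41 numbered 49 to 96 it was 0.67. The difference between these sets was not tested. Across mitotic counts Dnmt1 had medians of 1.94, 15.03 and 3.77 RPKM in the 29 cells with 0 to 4, the 17 with 5 to 11 and the 35 with 12 to 25, with quartiles of 0.212 and 11.2, 5.35 and 33.1, and 0.107 and 10.9. It was detected in 16, 15 and 23 of them. The middle set holds fewer than 20 cells, and its S-phase count had a median of 12, against 9 and 10 in the sets with fewer and with more mitotic genes.

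Suz12 and Ezh2 came next, with a rho of 0.25 and 0.24 with the S-phase count. Their partial values given the number of genes at 1 RPKM were 0.20 and 0.17. Suz12 was detected in 40 of the 45 cells with 10 or more S-phase genes (88.9%, 75.9% to 96.3%), at a median of 14.96 RPKM, and in 24 of the 36 with fewer (66.7%, 49.03% to 81.4%), at a median of 3.22 RPKM. Ezh2 was detected in 42 of 45 and 32 of 36, at medians of 61.99 and 32.6 RPKM. Both stayed under 0.3, and the ranges overlap, with 0 as the lowest value on each side. The remaining 7 members lay between -0.03 and 0.13.

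**Figure D3:**
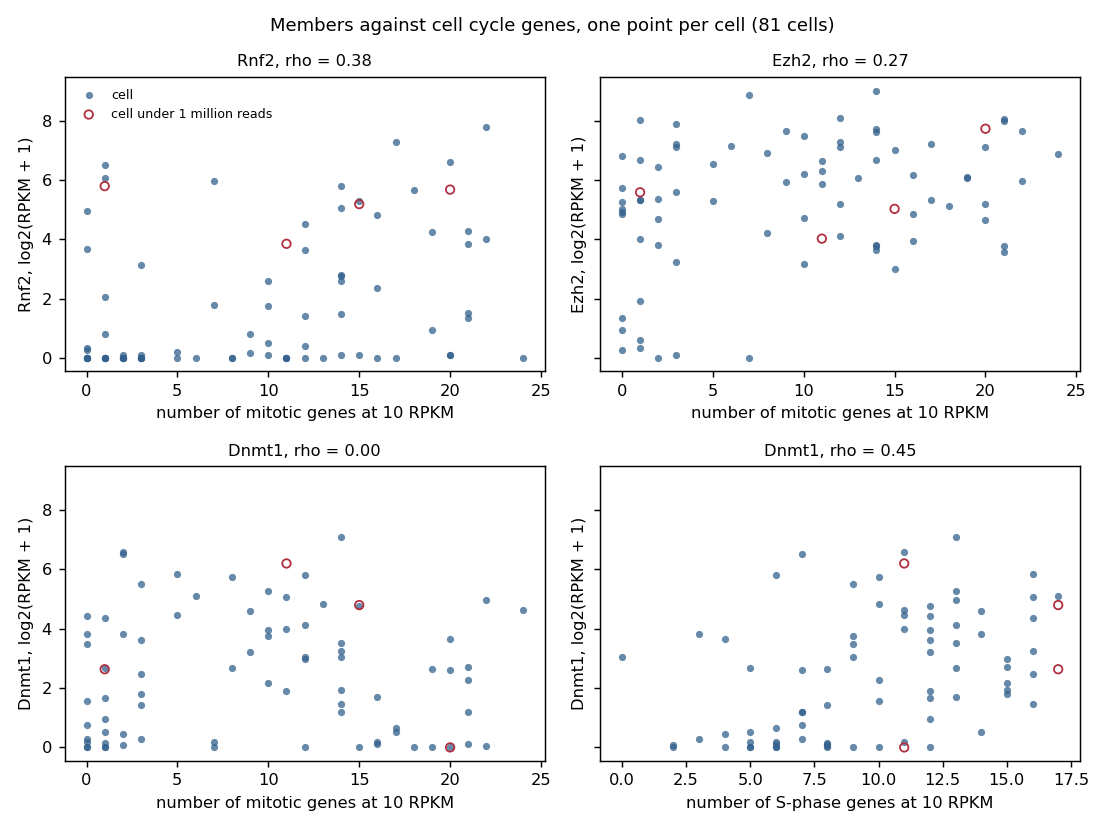
Level of Rnf2, Ezh2 and Dnmt1, as log2(RPKM + 1), against the number of mitotic genes or, for the last panel, S-phase genes at 10 RPKM; each point is 1 of 81 cells, and open circles are the 4 shallow cells. Rnf2 is mostly at or near 0 in cells with 0 to 4 mitotic genes, Ezh2 is below 1 RPKM in no cell with 12 or more, and Dnmt1 follows the S-phase count (rho 0.45) and not the mitotic count (rho 0.00).

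Genes whose pattern was most like each member were sought among 5201 other genes above 0 in at least 50% of the cells. Nearest to Rnf2 was Pttg1 (rho 0.48), which encodes securin, an inhibitor of sister chromatid separation before anaphase. Next came Ccnb1, the mitotic cyclin B1 (0.46), and Tmem167 (0.43). Nearest to Dnmt1 were Pa2g4 (0.49), the replication ligase gene Lig1 (0.47) and Pcna, the sliding clamp of replication (0.45). Nearest to Ezh2 were Cenpe, a kinetochore motor of mitosis (0.42), Ikbkb (0.39) and Dlg5 (0.39). Ccnb1 and Cenpe are on the mitotic list and Pcna on the S-phase list. Within those lists, Ezh2 was closest to Cenpe, Top2a (0.39) and Mki67 (0.37) and to Mcm6 (0.31), Rrm1 (0.31) and Mcm7 (0.29). Dnmt1 was closest to Pcna, Pola1 (0.43) and Rrm2 (0.42), and among mitotic genes to Aurkb (0.27), Top2a (0.1951) and Cdk1 (0.1002).

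For the other members the nearest genes were Usp5, Btaf1 and Capn2 for Ezh1 (0.44 to 0.39), Spata5, Zfyve20 and Abcd3 for Suz12 (0.44 to 0.42) and Psmd10, Gnpat and D930015E06Rik for Eed (0.44 to 0.38). For Bmi1 they were Ubfd1, Mier1 and Spry2 (0.40 to 0.38), and for Dnmt3a Med6, Ube2f and Pogk (0.35 to 0.33). Dnmt3b was nearest to the lactate dehydrogenase gene Ldha (0.42), Topbp1 (0.41), which acts in replication and its checkpoint, and Rdbp (0.41). Tet1 was nearest to Tmem66 (0.48), Rapgef1 (0.38) and Nedd1 (0.38), a centrosome gene. The highest of 5201 values is high in part because it was picked from so many, so these are descriptions only.

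No pair of the 10 genes was closely related across cells. Over their 45 pairs the rank correlation ran from -0.20 (Ezh1 with Dnmt3a) to 0.26 (Ezh2 with Rnf2), with a median of 0.01, and 0 pairs reached 0.3 in either direction. Genes of 1 complex were no exception: Ezh2 had 0.07 with Eed and -0.04 with Suz12, Suz12 had -0.16 with Eed, and Bmi1 had 0.02 with Rnf2. Dnmt3a had -0.05 with Dnmt3b. Between 3 and 9 of the 10 genes were detected per cell, with a median of 6, and that number had a rho of 0.54 with the number of genes at 1 RPKM.

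Most partner genes of both systems also had little relation to the mitotic count, with a few genes apart. Of 47 further genes listed, 46 were in the table and 45 were above 0 in at least 3 cells. Of these 45, 2 had a rho of at least 0.3 with the mitotic count (3.02% of all genes) and 2 had -0.3 or below (0.136% of all genes), with a median of 0.02. Those higher with the count were Asxl1 (0.40), a subunit of the enzyme that takes ubiquitin off H2A, and Rbbp4 (0.34), a histone chaperone in PRC2. Given the number of genes at 1 RPKM, Asxl1 was at 0.28 and Rbbp4 at 0.31. Those lower were Kdm6b (-0.36), a demethylase of lysine 27 of H3, and Hells (-0.32), a remodelling helicase that DNA methylation needs. Given the number of genes at 1 RPKM, Kdm6b was at -0.29 and Hells at -0.40.

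With the S-phase count, 3 of the 45 had a rho of at least 0.3 (1.88% of all genes) and 0 had -0.3 or below (0.212%). They were Uhrf1 (0.46), which brings Dnmt1 to newly copied DNA, Hells (0.36) and Pcgf6 (0.32), a PRC1 RING protein. Of the 13 DNA methylation partners tested 2 were at 0.3 or more, and their median rho was 0.07. Given the number of genes at 1 RPKM, Uhrf1 was at 0.41, Hells at 0.38 and Pcgf6 at 0.27, below 0.3. Uhrf1 was detected in 71 cells at a median of 37.4 RPKM, against 54 cells and 5.10 RPKM for Dnmt1, and 48 cells had both. Hells thus stood on opposite sides, low with mitotic genes and high with S-phase genes.

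By detection, the PRC2 partners were the most widespread, with Rbbp4 in 77 cells, Rbbp7, its close relative, in 76 and Mtf2, which brings PRC2 to CpG-rich DNA, in 66. Jarid2, another PRC2 partner, was in 62 cells. Phf1 and Phf19 were in 2 each. The 20 PRC1 genes were detected in a median of 20 cells, led by Phc2 (54), Bcor (44) and Yaf2 (41). Ring1, the paralog of Rnf2, was in 11 cells, 5 of them with Rnf2, so 42 of 81 cells had either ligase. Pcgf2, the paralog of Bmi1, was in 37 cells, 7 of them with Bmi1, and 48 cells had either. Cbx7 and Cbx8, readers of the lysine 27 mark, were in 2 cells each and Cbx2 in 22. Kdm6a was detected in 45 cells, Asxl2 in 42 and Kdm6b in 40. Among the DNA methylation partners Uhrf1 (71), Hells (61) and Tet2 (54) led, and Tet2 and Tet3 (43), paralogs of Tet1, were each detected in more cells than the 38 of Tet1. Dnmt3l, the cofactor of Dnmt3a in germ cells, had a listed value of 0 in each of the 81 cells. By 3 counts of the total this allows a share of up to 3.70% of cells with a value above 0, which limits counting error only and not the share of cells that express it.

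**Figure D4:**
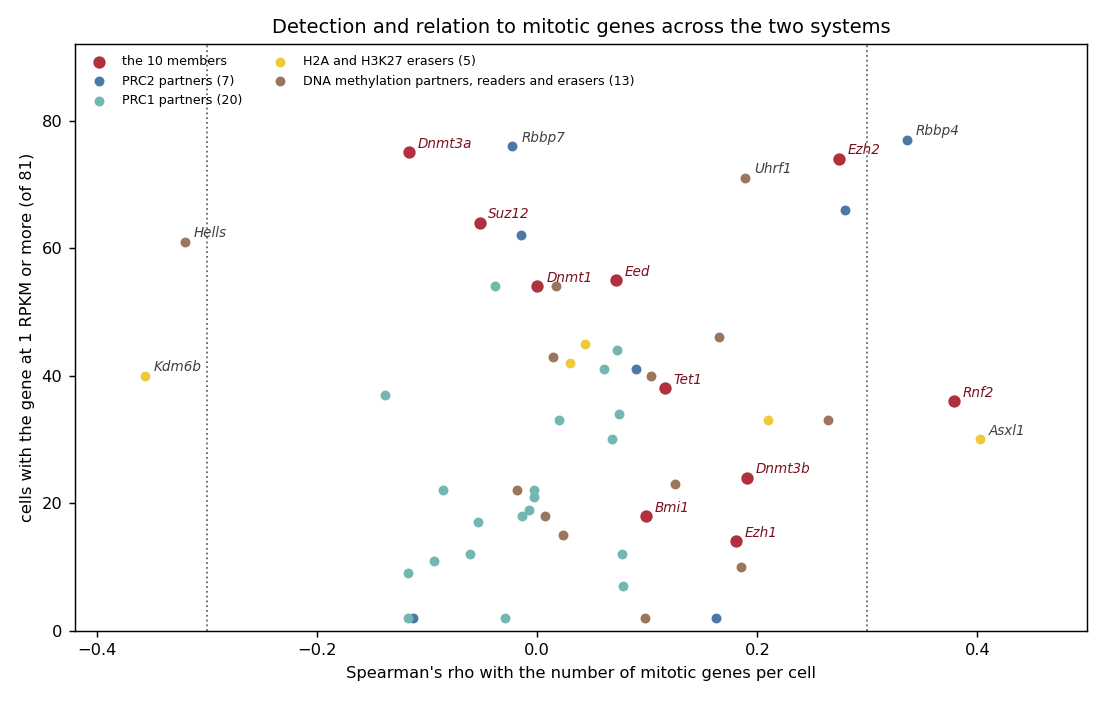
Number of the 81 cells in which a gene was detected (vertical axis) against its Spearman's rho with the number of mitotic genes (horizontal axis), for the 10 members (red) and 45 partner genes in 4 lists; dotted lines stand at -0.3 and 0.3. Rnf2 (36 cells), Asxl1 (30) and Rbbp4 (77) lie right of 0.3, Hells (61) and Kdm6b (40) left of -0.3, and the other genes between the lines.

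Cells with epithelial transcript were few, and differences between them and the other cells could not be tested, since all cells are 1 sample. In the 9 cells with Epcam at 10 RPKM, Dnmt3b was at 35.9 RPKM in C82, 24.4 in C95, 20.2 in C47, 10.4 in C43, 9.18 in C91, 0.124 in C29 and 0 in C13, C24 and C56. It was thus detected in 5 of 9 (55.6%, 21.2% to 86.3%), against 18 of the 65 cells that had none of Epcam, Chga, Tyrobp and Pecam1 at 10 RPKM (27.7%, 17.3% to 40.2%; median 0, highest 62.4 RPKM). The intervals overlap. C24 and C56 are the cells with Chga, an endocrine granule gene. Dnmt3a was detected in 9 of 9 and 59 of 65, with a median of 13.9 RPKM (3.68 to 73.1) in the 9 Epcam cells and 26.8 RPKM (0.2996 to 156.6) in the 65. C43 was sequenced to little depth.

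Ezh2 was detected in all 9 Epcam cells, at a median of 65.4 RPKM (12.8 to 515.4), and in 60 of the 65, at a median of 46.95 RPKM (0 to 469.1). Its highest value of all cells, 515.4 RPKM, was in the Epcam cell C91. Rnf2 was detected in 5 of 9 and 27 of 65. The Epcam cells had a median of 14 mitotic genes and the 65 cells 9, with a range of 2 to 21 in the Epcam cells, and the part of the mitotic count in these values was not tested. Without the 16 cells positive for any of the 4 markers, the rho of Rnf2 with the mitotic count was 0.38 and that of Dnmt1 with the S-phase count 0.44. In the 5 cells with Tyrobp, a macrophage gene, Dnmt3a was detected in every cell, at 203.8 RPKM in C31, 74.4 in C3, 52.3 in C2, 22.7 in C36 and 14.7 in C54. Ezh2 in the same cells was 16.3, 210.5, 0.913, 136.7 and 0 RPKM in that order. C3 is a shallow cell in which 1 read per kilobase is 50.6 RPKM, so its Tyrobp value of 88.5 RPKM rests on few reads. Tyrobp was 866.5 RPKM in C36 and 1131 RPKM or more in C2, C31 and C54. C3 also had Col1a2 at 195.6 RPKM, and its place among the Tyrobp cells is uncertain. In C22 and C72, the cells with the endothelial gene Pecam1, Ezh2 was 12.7 and 12.98 RPKM, both under its lower quartile over all cells.

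Over the whole marker lists, the summed RPKM of the 8 mesenchyme markers had a rho of -0.25 with the mitotic count, with medians of 434.7, 404.5 and 339.3 RPKM in cells with 0 to 4, 5 to 11 and 12 to 25 mitotic genes and ranges of 38.3 to 1085, 1.002 to 873.4 and 43.9 to 1249. The 9 epithelial markers had 0.17 and ranges from 0 to 184.3, 482.3 and 1701 RPKM. The sums of the other lists had a rho from -0.16 (endocrine) to 0.20 (erythroid) with the mitotic count. Msln, Hba-a1 and Hbb-y were at 0 in all cells. With Rnf2 the mesenchyme sum had a rho of -0.16 and the epithelial sum 0.15. With Ezh2 the mesenchyme sum had -0.01 and the epithelial sum 0.23. The part of these sums in the Rnf2 and Ezh2 results was not tested, beyond the Rnf2 value without marker-positive cells.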

How the data were processed

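Single-cell libraries of 81 pancreas cells were made with SMARTer cDNA and Nextera XT kits, per the labels' protocols. The authors deposited 1 table of transcript rows on mm9, per the submitters' processing notes, which also name CASAVA 1.8.2; no aligner, counter or annotation is named in the sources used here. The unit is not stated. The deposited values were taken as RPKM because value times transcript length (GENCODE vM21) falls on whole reads: 79.4% of low values in the median cell came within 0.15 of one. The same step gave the reads per cell. A gene was its transcript row of highest mean. Rank correlations were computed over the 81 cells for every gene above 0 in at least 3 cells, and partial ones given 1 cell measure. The counted list was left out of the shares at 0.3 or -0.3 and of the median over all genes, but not of the rank given for Rnf2. The work was done in Python 3.11.15 with pandas 2.3.3, numpy 2.4.6 and scipy 1.17.1, after a check on simulated data. Shares have exact Clopper-Pearson 95% intervals. Marker-positive means 10 RPKM. Genes named are the 10 members, list genes past 0.3 or the 3 detected in most cells of each list, and the 3 genes nearest to each member. Some cells, pairs of genes, further paralogs and partner genes were named after their values were seen. The members, lists and levels were chosen with earlier results of these data known. The S-phase comparison was made a result of its own after seeing the data. Alternatives are in the closing section. No doublet caller was run. Epop was not analysed here.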

Additional observations from a re-analysis of the deposited data

Results flagged for a closer look

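Within the cells positive for Epcam (9) or Tyrobp (5), each member was looked at for a cell far from the others by its gap to the next cell over the whole range, 20 sets in all. Such a cell was found in 9 of the 20. Chance flags about 1 set in 20 where values are normally distributed, which these are not: a set with 1 cell above 0 is flagged by construction, as for Ezh1 and Dnmt3b among the Tyrobp cells, so the number of flags carries no weight. Among the Epcam cells, Ezh2 was 515.4 RPKM in C91, with 141.2 as the next value. Bmi1 was 2.69 RPKM in C56 and Dnmt3a 73.1 RPKM in C24. Among the Tyrobp cells, C36 held 11.8 RPKM of Ezh1, 58.7 of Suz12, 49.2 of Eed and 0.0505 of Dnmt3b, and for the first 3 of these genes no other Tyrobp cell exceeded 6.09 RPKM. Bmi1 was 13.9 RPKM in C3, about 1 read there, and Tet1 was 45.3 RPKM in C54. The Tyrobp value of C3 also rests on few reads.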

How the results depend on the processing

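The side of 0.3 for Rnf2 with the mitotic count held in 15 of 16 alternatives (0.32 to 0.41); with S-phase genes counted in place of mitotic genes it was -0.0114, a different list by construction. The number of members at 0.3 or more was 1, and 2 (Ezh2 added, at 0.30 to 0.35) with mitotic genes counted at 20 RPKM, with the mean log2(RPKM + 1) of the list, with cells scaled by their 75th percentile, and with Pearson's r at a pseudocount of 1 or 0.1. Over all 16 alternatives Ezh2 ran from 0.14, in cells 1 to 48, to 0.35. For the S-phase count, whose alternatives were chosen after seeing the data, the number was 1 (Dnmt1). It was 0 in cells 1 to 48, where Dnmt1 was at 0.25, Suz12 at 0.21 and Tet1 at 0.23. It was 2 in cells 49 to 96, where Suz12 reached 0.31 and Tet1, with its sign changed, was at -0.32. With the mitotic count Suz12 was at 0.25 in cells 1 to 48 and at -0.27 in cells 49 to 96. Leaving out each cell in turn gave 0.36 to 0.41 for Rnf2 with the mitotic count and 0.44 to 0.48 for Dnmt1 with the S-phase count. The cause of these changes was not tested. The members detected in at least 50% of cells were 5 at 1 RPKM and 2 (Ezh2 and Dnmt3a) at 10 RPKM. Filtering at 1 or 20 cells gave 2.58% or 4.21% of all genes at 0.3. No paired analysis was possible because all cells belong to 1 group. In the 4 shallow cells a gene can reach 1 RPKM on 1 read. In C3 and C61, 1 read per kilobase is 50.6 and 13.8 RPKM, so a gene there can also reach 10 RPKM on 1 read. The mitotic counts (20 and 1) and S-phase counts (11 and 17) of C3 and C61 carry this limit.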
